A study of Mus musculus with 8 samples.

Results

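Renal ammonia handling was followed through 7 genes of the kidney transcriptome, taken by symbol from a table of 30587 genes. They are Slc38a3, Glud1, Pck1, Glul and Slc9a3, placed here as proximal genes, and Rhbg and Rhcg, placed here as collecting duct genes of ammonia transport. Of the proximal genes, Glul makes glutamine and so consumes ammonia, and the others serve ammonia production and secretion. All 7 passed the filter on low counts and were among the 18048 genes tested. Poly(A) RNA of whole kidney was sequenced from 4 Tsc1-KO libraries (Tsc1f/f with Aqp2 Cre, numbered 5 to 8) and 4 WT libraries (C57BL/6, numbered 1 to 4), all labelled as 28 days old. Aqp2 Cre is driven by a promoter of the collecting duct, so most cells of a Tsc1-KO kidney were not its target. The labels give neither a floxed allele nor a Cre for WT, and the presence of the Cre or of the strain background cannot be told apart from loss of Tsc1. The question put to the data was whether the proximal genes and the collecting duct genes of ammonia secretion differed in the same way between the genotypes.

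Most urinary ammonia is made by the kidney itself. Proximal tubule cells take up glutamine, strip its nitrogen in the mitochondria and pass the carbon skeleton on towards glucose, and the ammonium leaves mainly into the tubule lumen. It is reabsorbed in the thick ascending limb, collects in the medulla and is secreted by the collecting duct, where Rh glycoproteins carry ammonia and the proton pumps of A-type intercalated cells trap it in the urine as ammonium. Production and collecting duct secretion both rise when the body is acid-loaded.

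Library depth was 28651784 to 31226739 counts in Tsc1-KO and 26453073 to 28740944 counts in WT. The edgeR quasi-likelihood test called 632 genes higher in Tsc1-KO and 210 lower (adjusted p under 0.05), which is 4.67% of those tested, and the median log2 change was 0.00. Tsc1 had 65.9, 34.0, 51.4 and 47.6 counts scaled to library size (CPM) in Tsc1-KO libraries 5 to 8, against 42.8, 55.3, 54.4 and 53.3 CPM in WT libraries 1 to 4, so the whole-kidney level of the targeted gene did not serve as a check of the labels. Tsc1-KO library 7 stood apart. Its 4 adrenal cortex enzymes Cyp11b1, Cyp11b2, Cyp21a1 and Cyp11a1 had 3021 counts in sum, against at most 14 in each of the 7 others. Adipocyte markers did not set it apart, since they were high in both Tsc1-KO 6 and 7: Plin1 had 11.4, 28.3, 36.7 and 1.08 CPM in Tsc1-KO libraries 5 to 8, against 6.70 to 16.4 CPM in WT. Raw counts of library pairs were also compared by a chi-square per degree of freedom, which is lower for libraries more alike. For Tsc1-KO 7 it was 23.6 with WT 4, 45.5 with WT 3, 52.9 with WT 2 and 79.2 with WT 1. With Tsc1-KO 5, 6 and 8 it was 56.1, 71.9 and 64.5, so its nearest library was a WT library. Results are therefore given with and without Tsc1-KO 7, and the part of the extra tissue or of this likeness in them was not tested. Reads of 4 Y-linked genes were present in Tsc1-KO 7 and 8 and in WT 3 and 4 (3945 to 6001 reads) and nearly absent from the rest (0 to 8 reads), and the labels give no sex. By chi-square, the nearest WT pairs, WT 1 and 2 (22.3) and WT 3 and 4 (24.8), match in these reads. Tsc1-KO 7 matched WT 3 and 4 in them, but also Tsc1-KO 8, which was further away (64.5). Tsc1-KO 5 was nearest to Tsc1-KO 8 (30.6), and nearer to WT 2 (42.4) than to Tsc1-KO 6 (47.9). The part of these reads in the likeness was not tested.

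Promoter windows from RefSeq (GRCm38.p6, 250 bases before to 50 after the start) were matched by symbol for Rhcg, Pck1, Glul, Slc9a3 and Glud1, which is 5 of the 7 genes. Rhbg and Slc38a3 were not matched. The windows of Rhcg (chr7:79617608-79617907, minus strand), the member that was called, and of Pck1 (chr2:173152823-173153122, plus strand), the most abundant member, are shown 5′ to 3′, with every match to the searched motifs in capitals.
Rhcg: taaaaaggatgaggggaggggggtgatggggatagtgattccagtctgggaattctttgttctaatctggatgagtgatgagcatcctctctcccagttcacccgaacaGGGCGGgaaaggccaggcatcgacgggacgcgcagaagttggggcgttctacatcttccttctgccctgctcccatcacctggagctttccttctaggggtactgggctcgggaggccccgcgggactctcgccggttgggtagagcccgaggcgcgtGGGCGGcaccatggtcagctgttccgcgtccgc
Pck1: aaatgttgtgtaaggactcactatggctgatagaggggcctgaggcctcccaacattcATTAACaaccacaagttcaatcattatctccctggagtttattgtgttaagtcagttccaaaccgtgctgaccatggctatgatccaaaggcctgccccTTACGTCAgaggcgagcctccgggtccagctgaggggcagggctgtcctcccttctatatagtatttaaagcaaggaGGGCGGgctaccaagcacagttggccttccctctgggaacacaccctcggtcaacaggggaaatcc
In total, 11 motifs were searched on both strands. No window of the 5 genes held a forkhead core, searched as GTAAACA (present in 3.65% of all 32851 windows), as ATAAACA (4.6% of windows) and as GTAAATA (3.04% of windows). Pck1 held TTACGTCA, a variant of the cAMP response element found in 0.499% of windows, which overlaps a match to the element's core TGACGT (7.51% of windows), and the HNF1 core GTTAAT (7.1% of windows), here on the opposite strand as ATTAAC. The capitals in Rhcg are the GC box GGGCGG, held by all 5 windows and by 35.7% of all windows. The E-box CACGTG (7.15% of windows) was in that of Slc9a3. TGACGTCA (1.79%), TATAAA (13.6%) and CAAAGTCCA, an HNF4 site (0.475%), were in none of the 5. A match is a description of these letters and not a bound site.

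Rhcg rose in Tsc1-KO kidneys and was the only member called in either direction: 1 of 7, where 4.67% of all tested genes were called and 3.5% were called higher. None of the 7 was called lower (1.16% of all genes) in edgeR or in DESeq2, which called 8.54% of all genes in either direction, and none had all 4 Tsc1-KO libraries below all 4 WT libraries (4.4% of all genes). Of the 4 with a negative change, none had an unadjusted p under 0.05. The proximal members gave no call among 5, none with an unadjusted p under 0.05, and none in DESeq2. Over all 18048 genes tested, 3170 had an unadjusted p under 0.05 in edgeR, so 0 of 5 is near that share. The collecting duct members were both higher in mean level, with 1 of 2 called. In whole-kidney RNA, fewer cells of a type and less RNA per cell cannot be told apart.

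**Figure D1:**
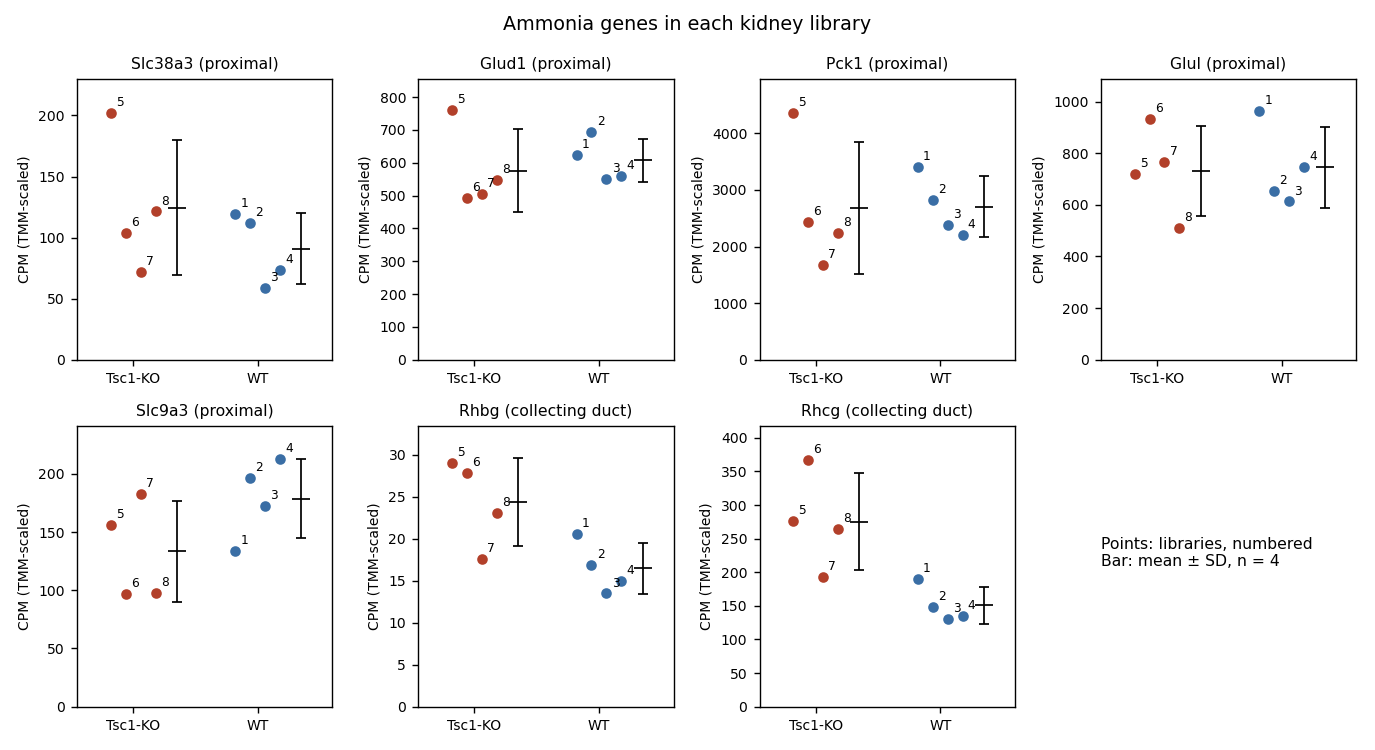
TMM-scaled CPM of the 7 genes in each numbered library, Tsc1-KO left of WT, with the mean ± SD of 4 libraries as a bar beside the points. For Rhcg the lowest Tsc1-KO library (193 CPM) lies just above the highest WT library (190.2 CPM), while the groups overlap for the 6 other genes.

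Rhcg (ENSMUSG00000030549, chr7:79593363-79617657, minus strand, positions here and for the other genes as in GRCm38) encodes the ammonia channel of the apical and basolateral membranes of collecting duct cells. It had 277, 367, 193 and 265 CPM in Tsc1-KO libraries 5 to 8, against 190.2, 149, 130.0 and 135 CPM in WT libraries 1 to 4. All 4 Tsc1-KO libraries lay above all 4 WT libraries, as they did for 7.09% of all tested genes, and the gap between Tsc1-KO 7 and WT 1 was narrow. The means were 275 ± 71.6 CPM in Tsc1-KO and 151 ± 27.4 CPM in WT (SD, n = 4 each), a 1.83-fold difference. On the log2 scale the change was 0.87 (SE 0.19, 95% interval 0.45 to 1.28, edgeR adjusted p = 0.0251). The study, from mice of this age and a later one, reported Rhcg and Rhbg among A-type intercalated cell transcripts significantly raised in Tsc1-KO. The choice of these 2 genes was therefore not blind to direction and counts as no separate support. Without Tsc1-KO 7 the Rhcg change was 1.0 (edgeR adjusted p = 0.0039), and without WT 1 it was 0.99 (adjusted p = 0.0240). The call was lost without Tsc1-KO 5 (0.87, adjusted p = 0.0632), Tsc1-KO 6 (0.70, 0.0569), Tsc1-KO 8 (0.89, 0.0600), WT 2 (0.84, 0.0824), WT 3 (0.79, 0.102) or WT 4 (0.79, 0.0853), all adjusted p-values of the same edgeR test on 7 libraries. DESeq2 gave 0.85 (adjusted p = 0.0010), and limma on log2(FPKM + 1) gave 0.82 without a call (adjusted p = 0.0587). A gene model annotated as still to be tested, Gm45170, overlaps Rhcg on its strand and had 230 to 452 counts, against 3514 to 11057 for Rhcg.

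Rhbg (ENSMUSG00000104445, chr3:88242874-88254709, minus strand) encodes the basolateral Rh glycoprotein that works beside Rhcg. It had 29.0, 27.8, 17.6 and 23.0 CPM in Tsc1-KO libraries, against 20.5, 16.9, 13.5 and 15.0 CPM in WT libraries. Tsc1-KO 7 fell below WT 1, so the groups overlapped. The log2 change was 0.56 (SE 0.18, 95% interval 0.17 to 0.96), with an unadjusted p of 0.0095 and an edgeR adjusted p of 0.116, and Rhbg was not called. The study, whose test was not repeated here, reported Rhbg as significantly raised in Tsc1-KO. Without Tsc1-KO 7 it was called (0.69, edgeR adjusted p = 0.0274), and so it was in the fit with a term for Y-linked reads (0.56, edgeR adjusted p = 0.0273). Tsc1-KO 7 was the lowest Tsc1-KO library for both and WT 1 the highest WT library for both. Per kilobase, Rhcg exceeded Rhbg in every library, with an FPKM ratio of 8.29 to 11.5 in Tsc1-KO and 7.66 to 8.38 in WT. An overlapping model on its strand, Gm38392, had 0 to 7 counts.

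Slc38a3 (chr9:107650634-107669530, minus strand) encodes the basolateral glutamine transporter SNAT3, which feeds ammonia production and is known to rise in acidosis. It had 202, 104, 71.7 and 121 CPM in Tsc1-KO libraries, against 119, 112, 58.9 and 73.7 CPM in WT libraries. Tsc1-KO 5 stood above every other library, and the other 3 Tsc1-KO values lay among or close to those of WT. The log2 change was 0.45 (SE 0.34, 95% interval -0.31 to 1.22, edgeR adjusted p = 0.561), an interval that runs from a fall to a rise larger than the estimate for Rhcg. Leaving out any 1 library moved it between 0.12 and 0.64 (0.64 without Tsc1-KO 7) and gave no call.

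Glud1 (chr14:34310727-34345265, plus strand) encodes glutamate dehydrogenase, the mitochondrial enzyme that releases the second nitrogen of glutamine. Its values were 761, 493, 504 and 546 CPM in Tsc1-KO libraries, against 622, 694, 551 and 561 CPM in WT libraries. Again Tsc1-KO 5 was highest, and the 3 other Tsc1-KO libraries were below all of WT. The log2 change was -0.08 (SE 0.15, 95% interval -0.41 to 0.26, edgeR adjusted p = 0.865). Without Tsc1-KO 7 it was -0.02. Its interval was the narrowest of the 7 genes and leaves out a rise of the size seen for Rhcg. A processed pseudogene, Glud-ps, had 29 to 95 counts, against at least 14845 for Glud1.

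Pck1 (chr2:173153048-173159273, plus strand) encodes cytosolic phosphoenolpyruvate carboxykinase, which draws the carbon of glutamine into glucose synthesis. It had 4364, 2436, 1682 and 2239 CPM in Tsc1-KO libraries, against 3404, 2825, 2379 and 2197 CPM in WT libraries. The highest and the lowest of the 8 values were both Tsc1-KO libraries, 5 and 7. Means were nearly equal, at 2680.1 ± 1167 CPM in Tsc1-KO and 2701 ± 538 CPM in WT (SD, n = 4 each). The log2 change was -0.01 (SE 0.27, 95% interval -0.60 to 0.58, edgeR adjusted p = 0.99). Its sign turned with the library left out: it was 0.16 without Tsc1-KO 7 and -0.35 without Tsc1-KO 5, neither called.

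Glul (chr1:153899944-153909723, plus strand) encodes glutamine synthetase, which consumes ammonia and so runs against its production. Its values were 719, 932, 765 and 510.1 CPM in Tsc1-KO libraries, against 966, 654.5, 613 and 748 CPM in WT libraries. The groups overlapped over most of their range, and the order of libraries differed from that of Pck1, with Tsc1-KO 6 and not Tsc1-KO 5 at the top of its group. The log2 change was -0.03 (SE 0.19, 95% interval -0.45 to 0.39, edgeR adjusted p = 0.969), and -0.05 without Tsc1-KO 7. Teddm2 overlaps it on the opposite strand with 8 to 45 counts, against at least 16036 for Glul.

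Slc9a3 (chr13:74121457-74169442, plus strand) encodes the apical sodium/proton exchanger NHE3, through which proximal cells secrete protons and ammonium. It had 156, 96.9, 183 and 97.3 CPM in Tsc1-KO libraries, against 134, 196, 173 and 213 CPM in WT libraries. Tsc1-KO 6 and 8 were below every WT library, and Tsc1-KO 5 and 7 lay within the WT range. The log2 change was -0.42 (SE 0.22, 95% interval -0.92 to 0.07, edgeR adjusted p = 0.374). Without Tsc1-KO 7 it was -0.62 (edgeR adjusted p = 0.116), still not called.

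**Figure D2:**
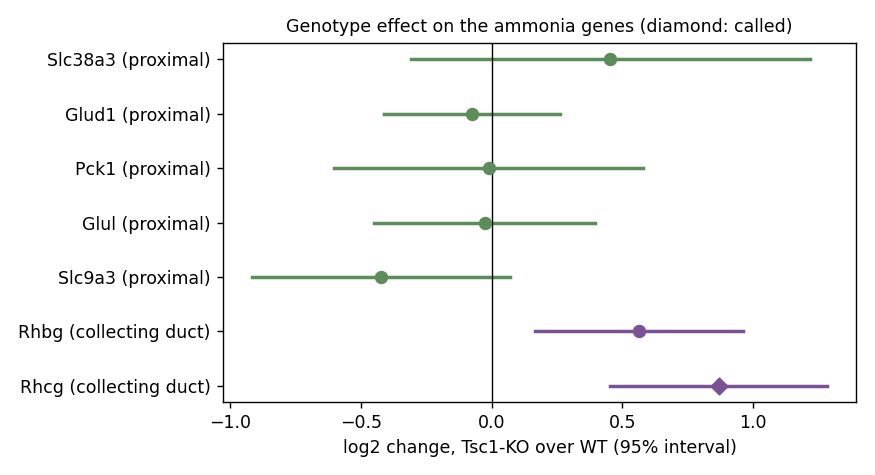
Log2 change of Tsc1-KO over WT for the 7 genes with its 95% interval from the edgeR fit, proximal genes in green, collecting duct genes in purple and the called gene as a diamond. The intervals of Rhcg (0.45 to 1.28) and Rhbg (0.17 to 0.96) lie above 0, and those of the 5 proximal genes include it.

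The order of the genes by length-scaled level was led by Pck1 in both genotypes, at 771 ± 331 FPKM in Tsc1-KO and 789 ± 161 FPKM in WT (SD, n = 4 each). Glul followed at 217 ± 52.7 and 225 ± 48.7 FPKM in Tsc1-KO and WT, then Glud1 at 135 ± 28.5 and 144 ± 15.6 FPKM. Rhcg was the fourth at 122 ± 32.5 FPKM in Tsc1-KO and 67.7 ± 12.7 FPKM in WT. In Tsc1-KO its values (85.0 to 164 FPKM) overlapped those of Glud1 (117 to 177 FPKM), while in WT they did not (58.2 to 85.9 FPKM, against 131 to 164 FPKM for Glud1). Slc9a3 and Slc38a3 came next, at 23.9 ± 7.61 and 23.3 ± 10.2 FPKM in Tsc1-KO and at 32.5 ± 6.12 and 17.3 ± 5.60 FPKM in WT. Rhbg was last at 12.4 ± 2.67 FPKM in Tsc1-KO and 8.51 ± 1.62 FPKM in WT. Neighbours in this order whose ranges overlapped in Tsc1-KO were Glul and Glud1, Glud1 and Rhcg, Slc9a3 and Slc38a3, and Slc38a3 and Rhbg, whereas in WT no neighbouring ranges overlapped.

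Set against the WT mean, the average of the collecting duct pair exceeded that of the 5 proximal genes in every Tsc1-KO library. Single genes did not all follow, since Slc38a3 in Tsc1-KO 5 (1.21) was above Rhcg (0.89) and Rhbg (0.83). Each gene was centred on its WT mean, so the WT deviations balance out by construction. The mean log2 deviation of Rhbg and Rhcg minus that of the 5 proximal genes was 0.45, 1.18, 0.46 and 0.92 in Tsc1-KO libraries 5 to 8, and 0.17, -0.10, -0.00 and -0.07 in WT libraries 1 to 4. The proximal mean itself, which includes Glul, was 0.41 in Tsc1-KO 5 and -0.14, -0.22 and -0.26 in Tsc1-KO 6 to 8, against -0.23 to 0.17 in WT. FPKM ratios within libraries were taken with Rhcg, the called gene, over each proximal gene, so they largely restate its change and leave out Rhbg. Rhcg over Pck1 was 0.0975, 0.232, 0.176 and 0.182 in Tsc1-KO, against 0.0809 to 0.0941 in WT. Rhcg over Glud1 was 0.686 to 1.40 in Tsc1-KO and 0.405 to 0.576 in WT, and Rhcg over Glul was 0.375 to 0.773 in Tsc1-KO and 0.268 to 0.338 in WT. Over Slc38a3 (3.25 to 8.39 in Tsc1-KO, 3.14 to 5.22 in WT) and over Slc9a3 (2.60 to 9.35 in Tsc1-KO, 1.56 to 3.51 in WT) the ratios of the genotypes overlapped. These are descriptions, and the difference between the proximal and the collecting duct genes was not tested.

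**Figure D3:**
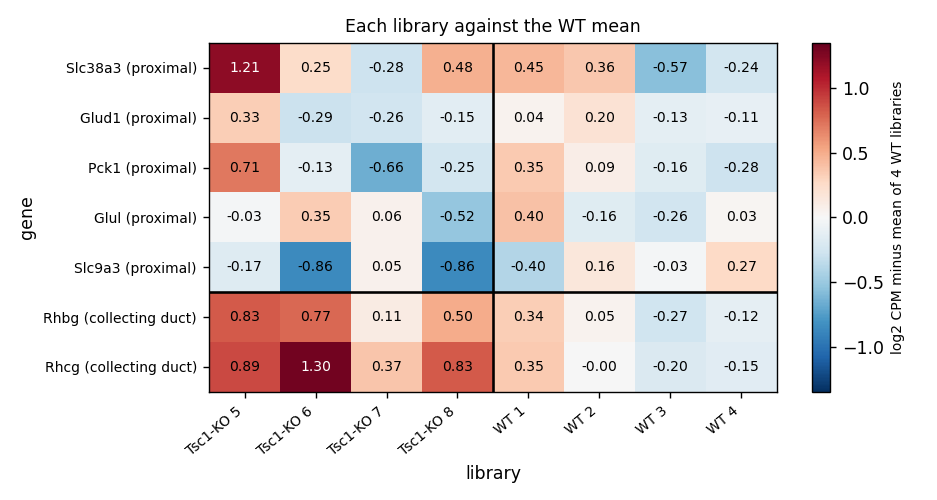
Log2 CPM of each gene (rows) in each library (columns, Tsc1-KO left of WT) minus the mean of the 4 WT libraries, in red where above it and blue where below. Rhcg and Rhbg are above the WT mean in all 4 Tsc1-KO libraries, whereas the proximal genes are mixed, with Tsc1-KO 5 highest for Slc38a3 (1.21) and Pck1 (0.71).

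Markers of the cells that use these genes moved as well. All 7 A-type intercalated cell markers were called higher (median log2 change 1.93), where 3.5% of all genes were. Their summed levels were 583 to 1151 CPM in Tsc1-KO and 257 to 361 CPM in WT, and the study chose several of these markers on these samples. Foxi1, the transcription factor of intercalated cells, had 149, 208, 93.7 and 158 CPM in Tsc1-KO libraries, against 49.8, 41.8, 29.3 and 38.3 CPM in WT libraries (log2 change 1.93, edgeR adjusted p = 0.0013). Its libraries stood in the same order within Tsc1-KO as those of Rhcg except for 5 and 8, with Tsc1-KO 6 highest and 7 lowest. Of 8 principal cell markers tested, 2 were called higher and 1 lower, and Aqp2 was not called (log2 change 0.11, adjusted p = 0.825). The 5 general intercalated cell markers had a median log2 change of 0.33 with 1 called higher, Hepacam2. All 12 proximal tubule markers had negative changes (median -0.54), and 3 were called lower (1.16% of all genes), namely Slc34a1, Miox and Hnf4a. Their summed level was 11392 to 15342 CPM in Tsc1-KO and 18530 to 20240 CPM in WT, while the 5 proximal ammonia genes had a median log2 change of -0.03. Without Tsc1-KO 7, all 7 A-type intercalated cell markers were called higher, and without any other library 6 of 7 were, Aqp6 being the one lost. Of the proximal tubule markers, 5 were called lower without Tsc1-KO 7, where 373 of 18395 genes were. The number of proximal tubule markers called was 1 without Tsc1-KO 8 or WT 3 and 2 without Tsc1-KO 5, Tsc1-KO 6, WT 2 or WT 4. Lower calls over all genes were 107 to 158 in the fits without 1 library other than Tsc1-KO 7. With all libraries, 8 of these 12 had an unadjusted p under 0.05 in edgeR, as did 3170 of all 18048 genes. DESeq2 called 7 of them lower, where it called 8.54% of all genes in either direction. The edgeR fit with a term for Y-linked reads called 6 lower (6.07% of all genes in either direction). Limma on log2(FPKM + 1) and edgeR scaled by library totals only each called 2 lower. The 6 macrophage markers had a median of 0.80 with Lyz2 called higher, the 4 connecting tubule markers a median of -0.32 with Klk1 (-0.90) called lower, and the 4 distal convoluted tubule markers a median of -0.11 with Pvalb (-2.06) called lower. The 4 markers of the proximal straight tubule had a median of -0.81, with no call in edgeR (none with an unadjusted p under 0.05) or DESeq2. The part of the marker changes in the levels of the ammonia genes was not tested.

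Around these genes, 62 others of glutamine uptake, ammonia production, acid secretion and ammonium transport were read from the same fit. Of the 61 tested, 6 were called higher and 2 lower, with a median log2 change of -0.08, where 3.5% of all genes were called higher and 1.16% lower. Rhag, the red-cell Rh glycoprotein, had 0 to 9 counts and was not tested. Without Tsc1-KO 7, 7 were called higher and 5 lower, while the calls over all genes also went up, to 833 higher and 373 lower. The lower count was 0 without Tsc1-KO 5, 6 or 8 or WT 1 or 3, and 1 without WT 4. By list, changes were negative for 9 of 11 breakdown genes, 8 of 10 genes from 2-oxoglutarate to glucose and 7 of 9 proximal acid secretion genes. They were positive for 5 of 9 glutamine uptake, 3 of 4 thick ascending limb, 7 of 9 collecting duct and 6 of 9 acid sensing genes. Over all 18048 genes tested, 8891 changes were negative. The difference between the lists was not tested.

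Of the 9 genes listed for glutamine uptake, 1 rose, and whole-kidney counts do not show in which segment. Slc38a2, the amino acid transporter SNAT2, had 124 to 147 CPM in Tsc1-KO and 80.1 to 96.9 CPM in WT (log2 change 0.55, SE 0.10, edgeR adjusted p = 0.0128), and it was called in all 8 fits that left out 1 library. Of 11 genes of glutamine and glutamate breakdown, Got1, the cytosolic aspartate aminotransferase, rose (183 to 252.5 CPM in Tsc1-KO, 126 to 163 CPM in WT, log2 change 0.59, adjusted p = 0.0267). Ggt1, the brush-border enzyme gamma-glutamyltransferase, fell, with 563 to 858 CPM in Tsc1-KO and 929 to 1286 CPM in WT (log2 change -0.71, adjusted p = 0.0293). On the path from 2-oxoglutarate to glucose, Fbp1, the gluconeogenic fructose bisphosphatase, fell as 1 of 10 genes (825 to 1034.5 CPM in Tsc1-KO, 1167 to 1392 CPM in WT, log2 change -0.52, adjusted p = 0.0283). Pcx, pyruvate carboxylase, named here after its values were seen, had a larger change (-0.79, edgeR adjusted p = 0.0649) without overlap of the groups. It was called lower by DESeq2, with the term for Y-linked reads and without Tsc1-KO 7, and DESeq2 also called Sdha lower. Pck2 of the same list, also named after its values were seen, went the other way (0.45, edgeR adjusted p = 0.132). It was called higher without Tsc1-KO 7 (0.57, edgeR adjusted p = 0.0255). With 1 library left out, the calls of Got1, Fbp1 and Ggt1 held in 3, 3 and 2 of 8 fits. Summed levels of the breakdown genes were 1835 to 2143 CPM in Tsc1-KO and 2269 to 2635 CPM in WT. Those of the path to glucose were 5352 to 5821 CPM in Tsc1-KO and 6586 to 6979 CPM in WT. The most abundant genes weigh most in such sums, and in the remaining lists the sums of the genotypes overlapped. None of 9 genes of proximal acid secretion was called by edgeR with all libraries, and DESeq2 called Pdzk1 lower. In edgeR, 3 of the 9 had an unadjusted p under 0.05, as did 3170 of all 18048 genes. The largest changes there were those of Pdzk1, a scaffold of brush-border transporters (-0.59, edgeR adjusted p = 0.124), and Slc9a8, another sodium/proton exchanger (-0.50, edgeR adjusted p = 0.405), and without Tsc1-KO 7 both were called lower (-0.81 and -0.84).

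In the list for thick ascending limb absorption, Slc9a4 rose as 1 of 4 genes. It encodes NHE4, a basolateral exchanger that lets ammonium out of these cells, and had 5.97 to 10.2 CPM in Tsc1-KO and 1.96 to 3.54 CPM in WT (log2 change 1.64, SE 0.26, edgeR adjusted p = 0.0045). Of 9 tested genes of collecting duct ammonium and proton transport, 3 rose. Slc4a1, the chloride/bicarbonate exchanger AE1 of A-type intercalated cells, had 119.7 to 225 CPM in Tsc1-KO and 64.6 to 87.1 CPM in WT (log2 change 1.12, SE 0.18, adjusted p = 0.0045). Hcn2, a cation channel described in rat as a basolateral route of ammonium into collecting duct cells, had 5.66 to 11.1 CPM in Tsc1-KO and 2.18 to 3.53 CPM in WT (log2 change 1.45, SE 0.25, adjusted p = 0.0087). All 3 of these held their calls in each of the 8 fits without 1 library. Atp12a, the non-gastric proton/potassium ATPase, was called at 4.07 to 17.8 CPM in Tsc1-KO and 1.12 to 4.33 CPM in WT (log2 change 2.09, adjusted p = 0.0490), with overlapping groups, and held in 2 of the 8 fits. Without Tsc1-KO 7 its adjusted p was 0.0684. The 9 genes of acid sensing gave no call with all libraries in edgeR or in DESeq2. In edgeR, 1 of the 9 had an unadjusted p under 0.05, as did 3170 of all 18048 genes. The largest changes there were in Edn1, endothelin-1 (0.93, edgeR adjusted p = 0.258, and 1.20 with a call without Tsc1-KO 7), and Insrr, an alkali sensor (-0.30, adjusted p = 0.442).

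**Figure D4:**
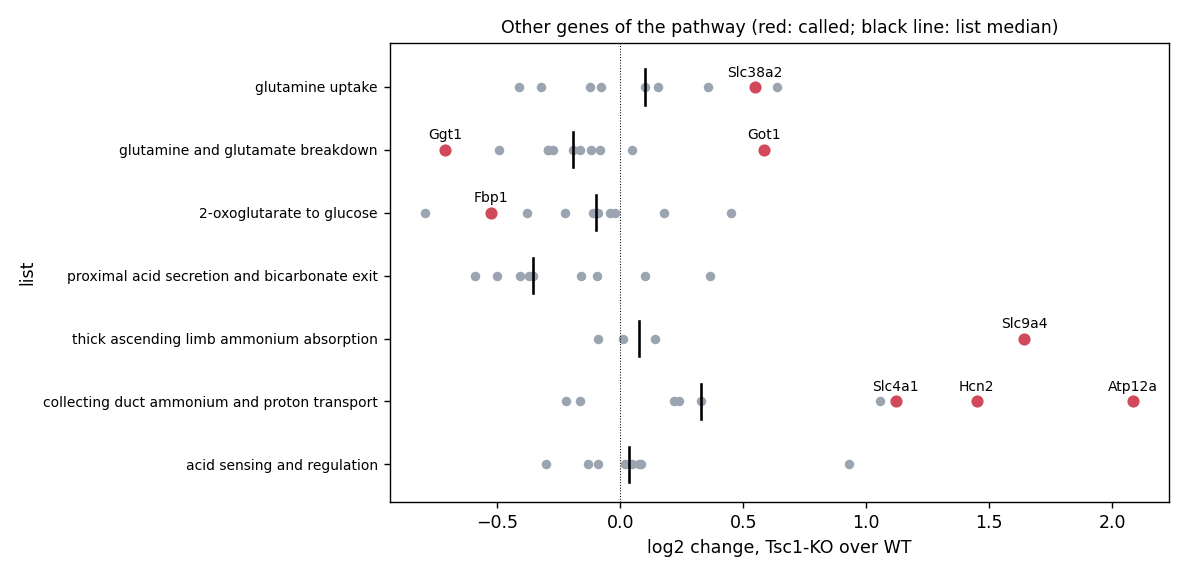
Log2 change of Tsc1-KO over WT for each tested gene (point) of 7 lists of the ammonia pathway that hold none of the 7 genes themselves, with called genes in red and the list median as a black line. The called genes with changes above 1 (Slc9a4, Slc4a1, Hcn2, Atp12a) are in the 2 distal transport lists, and Ggt1 (-0.71) and Fbp1 (-0.52) are the lower calls.

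In a fit with a term for Y-linked reads, the estimate for libraries with them was negative for 6 of the 7 genes, Slc9a3 being the exception. The log2 difference was -0.73 for Slc38a3, -0.62 for Pck1, -0.44 for Rhbg and -0.43 for Rhcg, with unadjusted p-values under 0.05 for these 4 genes. None was called after adjustment (lowest edgeR adjusted p = 0.244), and 0.399% of all genes were. With this term in the model, the genotype change of Rhcg was 0.86 (edgeR adjusted p = 0.0046) and both collecting duct genes were called, where 6.07% of all genes were. The change of Rhcg was 0.93 among the libraries without these reads (adjusted p = 0.0684) and 0.79 among those with them (adjusted p = 0.158), each with 2 libraries per genotype in a shared edgeR fit. The interaction gave no call among the 7 genes or all 18048 genes in edgeR. At an unadjusted p under 0.05 there were 356 genes, 1.97% of those tested, and none of the 7.

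As a description of likeness, genes were ranked by the Pearson r of log2 CPM with each member over the 8 libraries, among 11423 protein-coding genes. These r values include the difference between genotypes and any difference in library composition. Tead2 (r = 0.996), Atp6ap2 (0.994) and Pcyox1 (0.994) were nearest to Rhcg, and Det1 (0.993), Ndrg2 (0.978) and Atp6v0a1 (0.975) to Rhbg. Atp6ap2 and Atp6v0a1 encode an accessory and a core subunit of the proton pump, and an excess of such genes was not tested. Of the 3 genes nearest to Rhcg, Tead2 (log2 change 1.01, edgeR adjusted p = 0.0341) and Atp6ap2 (0.58, adjusted p = 0.0408) were called higher in Tsc1-KO. Genes picked for likeness to a member over the same libraries tend to share its change, so these calls are no separate support. The nearest genes were Cwh43, Nbeal2 and Rab5b for Slc38a3, Slc4a9, Cyb561a3 and Cdkl1 for Glud1, and Kmo, Acat3 and Tuba4a for Pck1. They were Sart3, Tmem251 and Rpl7a for Glul and Ptcd1, Dcun1d4 and Dab1 for Slc9a3. None of the genes named for these 5 was called, which for the same reason is no separate support.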

How the data were processed

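Poly(A) RNA of whole kidney was sequenced on a HiSeq system for 8 libraries, and the labelled genotype set the groups. Alignment and counting tools in the submitters' notes were HISAT2 2.0.4 with HTSeq 0.9.1. Build, annotation and strand setting: not given in the sources used here. All 7 genes have the positions of GENCODE M21 (GRCm38). The deposited table holds the authors' raw read counts per gene, the authors' FPKM values (scaled by gene length and library total) and the authors' normalized signal. The authors' group means, log2 fold changes and p-values beside them were not used. Other deposited sheets repeat this table and were not used.

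Counts were fitted in R 4.3.3 with edgeR 4.0.16 (filterByExpr minimum 10, TMM, robust quasi-likelihood test, two-sided, Benjamini-Hochberg over 18048 genes). Genes were called at an adjusted p under 0.05. CPM are TMM-scaled. Alternatives used DESeq2 1.42.0, limma 3.58.1 on log2(FPKM + 1), other scalings, no filter, terms for Y-linked reads and libraries left out. On simulated counts of this comparison with 18047 genes, edgeR recovered 2% of 50 genes changed by 0.5 on the log2 scale, 72% at 1 and 86% at 1.5. Fewer genes were changed there than the 842 called in the data, which makes the adjusted cut-off stricter, and 14 unchanged genes were called. Figures used matplotlib 3.10.9. Replicates were not stated to be separate animals, so p-values measure the spread between libraries. The 7 genes, lists and motifs were chosen with earlier results of these data known. Besides the 7 genes, the genes named are Tsc1, called genes of the lists, the 2 largest changes of a list with no call, the 3 genes most like each member with a mean of at least 5 CPM, and markers. A further gene under this rule is not reported here.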

Additional observations from a re-analysis of the deposited data

Results flagged for a closer look

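In 54 groups of 4 libraries, the highest or lowest library was compared with the rest by Dixon's gap ratio, which chance passes in about 1 in 20 groups. Of the genes above, 2 passed. Ggt1 had 858 CPM in Tsc1-KO 7, the library with adrenal cortex transcripts, and the next highest Tsc1-KO library had 596 CPM. Tsc1 had 42.8 CPM in WT 1, and the next lowest WT library had 53.3 CPM.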

How the results depend on the processing

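No paired analysis was possible because Tsc1-KO (5 to 8) and WT (1 to 4) share no replicate number. With 1 library left out, the log2 change ranged from 0.70 to 1.0 for Rhcg, 0.46 to 0.69 for Rhbg, -0.35 to 0.16 for Pck1, -0.17 to 0.12 for Glul, -0.21 to 0.095 for Tsc1 and -0.028 to 0.24 for Aqp2. The members called higher ranged from 0 to 2, the other pathway genes from 4 to 7 higher and 0 to 5 lower, and all genes from 321 to 833 higher and 107 to 373 lower. With the term for Y-linked reads, 2 members (Rhbg at 0.56 and Rhcg) were called higher and 317 genes lower. Within libraries without Y-linked reads, 175 genes were higher and 65 lower, with 0 members, 1 pathway gene higher and 0 lower. There, Rhcg was at 0.93, Pck1 at 0.13, Glul at 0.027, Tsc1 at 0.027 and Aqp2 at -0.017. Within libraries with them, 98 genes were higher and 34 lower, with 0 members, 0 pathway genes higher and 0 lower, and Rhcg was at 0.79. DESeq2 called 1011 genes higher and 529 lower, and 5 pathway genes lower. The limma fit on FPKM called 0 members (Rhcg 0.82, adjusted p = 0.0587). With library totals only, Glud1 (0.012), Pck1 (0.075), Glul (0.065) and Tsc1 (0.036) turned positive, where the median of all genes was 0.095. Calls there were 904 higher and 154 lower. The interaction of Glud1 was 0.0020 without a filter. The cause of these shifts was not tested.

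With 4 libraries per genotype, changes near 0.5 on the log2 scale were rarely called in simulated counts, so a member without a call is not shown to be equal between genotypes. Whole-kidney RNA holds all segments, and gene counts do not show where a transcript came from.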
